A study of Mus musculus with 6 samples.

Results

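The cells described here carry the deposited class name Pre-EMT cranial neural crest in the day 6, day 7 and day 8 libraries of mouse neural tube organoids. They were taken by that name from the authors' cell annotation, which gives 261 of the 8304 cells of those 3 libraries, in a series of 16282 cells. The class is 1 cluster of the authors, their cluster number 8, and every cell of that cluster over all days has this name. It held 52 of 2402 cells at day 6 (2.17%, exact 95% interval 1.62 to 2.83%), 133 of 2565 at day 7 (5.19%, 4.36 to 6.11%) and 76 of 3337 at day 8 (2.28%, 1.80 to 2.84%). At day 10, used here for orientation alone, it held 255 of 3677 cells.

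The organoids were grown from mouse embryonic stem cells with reporters of Sox1 and of Brachyury (the line Sox1::eGFP;Bra::mCherry), which all groups share. Cells were seeded in Matrigel and given bFGF (a fibroblast growth factor) plus activin-A until day 3, then neither. The 3 groups are elongated organoids at day 6 (replicate 2, labelled batch 2), day 7 and day 8, with 100 organoids pooled per condition. Organoids older than day 6 had been freed from the gel with collagenase IV and dispase and set singly in new drops. Each day is 1 library, so day, library and re-embedding cannot be told apart, no test between days is possible, and no p-value is given. All intervals below cover counting error only.

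Neural crest arises at the border of the neural plate, between neural and surface ectoderm. Premigratory crest cells sit in the dorsal neural tube, switch on Foxd3, Sox10, Snai2 and Ets1, and leave by an epithelial-to-mesenchymal transition (EMT). The roof plate, the non-neurogenic dorsal midline of the neural tube, lies beside them and secretes Wnt and BMP ligands and R-spondins, which strengthen Wnt signalling. Surface ectoderm is a simple epithelium with keratins, claudins, Epcam and E-cadherin.

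Median UMIs per class cell (UMIs are counted RNA molecules) were 52111 at day 6, 49948 at day 7 and 33947 at day 8, against 59102, 48738 and 34760 in the mid/hindbrain class, the largest class on each day. Of the class cells, 0, 3 and 8 had more than 2 times their library's median UMIs. Median mitochondrial shares were 4.60%, 4.43% and 5.52% in the class and 4.11%, 4.35% and 5.25% in mid/hindbrain. Between 1 and 3 cell barcodes were shared by any pair of these libraries, none of them within the class. Levels below are in CPM, the UMIs of a gene per 1000000 UMIs, summed over the cells of a class or group in 1 library.

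Crest genes matched the name only in part. Twist1 and Cdh11, given further below, stood above the other cells. The crest genes Foxd3 and Sox10, transcription factors that define crest, were nearly absent from the class. Foxd3 measured 0.353 CPM at day 6 (1 UMI in all 52 cells), 1.78 CPM at day 7 and 0 at day 8, where 3 UMIs would be 0.985 CPM. The migratory cranial neural crest class of the same libraries held 159 CPM at day 7 and 111 CPM at day 8. Sox10 measured 0.353, 1.37 and 0 CPM, against 135 and 279 CPM in the migratory class at days 7 and 8. The vagal/trunk class, also named Pre-EMT, held 0, 17.75 and 0 CPM of Foxd3 and 0, 1.22 and 0 CPM of Sox10. Ets1, which marks cranial crest, measured 15.5, 9.57 and 0.985 CPM, against 162 and 90.9 CPM in the migratory class. At day 6 Ets1 was above the levels of mid/hindbrain (0.562 CPM), the vagal/trunk class (0.818 CPM) and spinal cord (0.133 CPM). At day 7 it was above mid/hindbrain (4.74 CPM) but level with the vagal/trunk class (9.18 CPM). By day 8 it was above neither mid/hindbrain (1.90 CPM) nor the vagal/trunk class (1.23 CPM). Tfap2b stayed at 0.706, 0.821 and 1.97 CPM. The migratory class held 37 cells at day 7 and 7 at day 8, and none at day 6. Because of this partial match the cells are called by their deposited name or as "the class", with no new cell type name. Days are compared as cells of the same cluster number.

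The 3 genes that mark the class did not mark it on the same days. They lie on mm10 at chr15:101996698-102004482 on the minus strand (Krt8), chr17:87635979-87651129 on the plus strand (Epcam) and chr4:124986430-125009099 on the plus strand (Rspo1), as protein-coding genes of GENCODE vM21. Krt8, a keratin of simple epithelia, measured 627 CPM at day 6 (599 to 657), 152 CPM at day 7 (144 to 162) and 7.22 CPM at day 8 (4.53 to 10.9). The other cells of the same libraries held 21.1, 14.5 and 6.58 CPM. At day 6 no other class came near it, the next being the Pre-EMT vagal/trunk class with 34.1 CPM, but at day 7 the dorsal interneuron 3 class held 1009.2 CPM in 14 cells, and at day 8 the classes dorsal interneuron 3 and 2 held 83.8 and 54.9 CPM. Epcam, an adhesion protein of epithelia, measured 205 CPM, 32.3 CPM and 2.30 CPM in the class and 47.3, 1.77 and 1.87 CPM in the other cells. Rspo1, an R-spondin, ran the other way, with 4.94 CPM at day 6 (2.70 to 8.29), 145 CPM at day 7 (136 to 154) and 400.2 CPM at day 8 (378 to 423), against 4.18, 16.5 and 14.5 CPM in the other cells. At day 7 the vagal/trunk class held as much Rspo1 within the counting intervals, 132 CPM (115 to 151), and at day 8 it held 56.9 CPM.

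**Figure D1:**
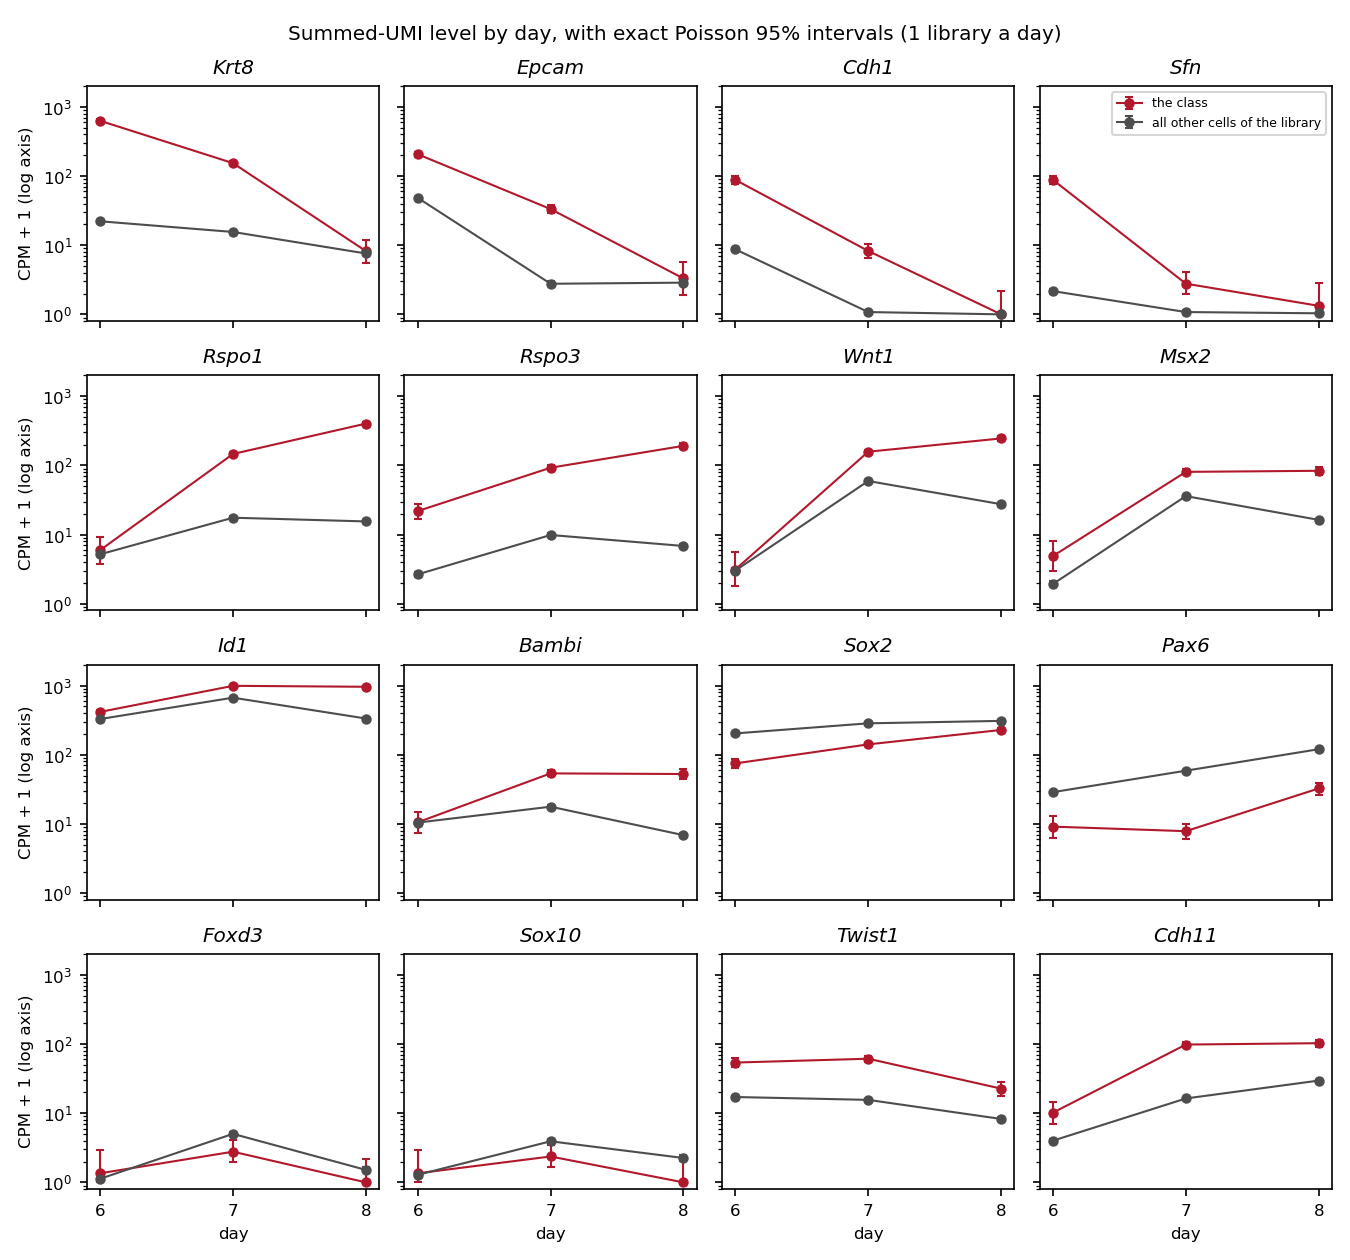
Level of 16 genes in the class (red) and in all other cells of the same library (grey) at days 6, 7 and 8, as CPM + 1 on a log axis, with exact Poisson 95% intervals. Krt8, Epcam, Cdh1 and Sfn were high in the class at day 6 and met the other cells by day 8, while Rspo1, Rspo3 and Wnt1 were higher at each later day and Foxd3 and Sox10 stayed near 0.

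Stretches upstream of 3 of these genes are printed because Krt18, Epcam and Rspo1 stand for the 2 gene groups that led the class at day 6 and at day 8. They come from RefSeq on GRCm38.p6 (mm10), read on the gene's strand and ending at its RefSeq start; for Krt18 the last 36 bases, which GENCODE vM21 places in its first exon, are left out. The windows are chr15:102027966-102028179 (plus strand, 214 bases) for Krt18, chr17:87635729-87635978 (plus strand, 250 bases) for Epcam and chr4:124986180-124986429 (plus strand, 250 bases) for Rspo1. Capitals mark CACCTG on either strand, the E-box letters that the Snai and Zeb repressors are known to bind.
Krt18: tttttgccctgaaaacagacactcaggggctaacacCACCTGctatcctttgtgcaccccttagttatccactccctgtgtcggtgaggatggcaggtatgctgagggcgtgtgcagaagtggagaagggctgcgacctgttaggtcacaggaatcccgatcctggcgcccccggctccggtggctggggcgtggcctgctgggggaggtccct
Epcam: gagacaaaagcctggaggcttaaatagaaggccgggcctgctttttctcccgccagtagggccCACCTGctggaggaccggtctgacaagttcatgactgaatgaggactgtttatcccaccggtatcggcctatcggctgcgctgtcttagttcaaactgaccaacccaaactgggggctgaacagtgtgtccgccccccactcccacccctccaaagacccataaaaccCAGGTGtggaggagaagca
Rspo1: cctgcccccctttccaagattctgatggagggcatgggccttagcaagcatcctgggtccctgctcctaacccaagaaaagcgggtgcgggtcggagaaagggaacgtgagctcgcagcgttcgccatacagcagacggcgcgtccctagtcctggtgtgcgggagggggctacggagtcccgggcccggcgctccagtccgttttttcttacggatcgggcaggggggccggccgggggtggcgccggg
Krt18 holds the letters 1 time, Epcam 2 times and Rspo1 not at all in these windows. In 250 bases upstream of a RefSeq start, the letters occurred for 12 of the 13 epithelial genes with such a window and for 5 of 12 roof plate genes. Over all genes they occurred for 5252 of 27025, in 17.2% of all 32851 windows. Of the 15 highest genes of the class they occurred for 4 of the 8 with a window at day 6. At day 8 it was 1 of 9. For 3 other motifs looked for in the same windows, on both strands, the AP-2 letters GCCNNNGGC occurred for 3 epithelial and 2 roof plate genes (4163 of all genes, 13.7% of all windows), the Grainyhead letters AACCNGTT for 2 and 1 (540 genes, 1.79%), and the TCF/LEF letters CTTTGAT for none of either (1005 genes, 3.21%). These motifs were picked after the levels were known, and a match is a run of letters, not a shown binding site.

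At day 6 the class was set off from its neighbours by epithelial genes. Of 20 epithelial genes, 11 were at least 2-fold higher than in the other cells and none was 2-fold lower; 8 genes were under 20 CPM on both sides and 8 passed that minimum through the class alone. Over all genes 3.65% were 2-fold higher and 4.61% were 2-fold apart either way (261 of 5666). Together the epithelial list came to 1899.7 CPM in the class and 184 CPM in the other cells. Besides the keratins Krt8 and Krt18 (436 against 29.5 CPM), the highest ratios included Sfn (86.9 against 1.17 CPM), an epithelial 14-3-3 protein, E-cadherin or Cdh1 (86.9 against 7.70 CPM) and the tight junction claudin Cldn7 (64.3 against 6.29 CPM). Cldn3 (84.0 against 11.1 CPM) and Cldn4 (36.0 against 0.614 CPM) were of the same kind. Trp63, which marks stratifying epidermis, was at 0 in the class on all 3 days. Further leading genes were the heat shock gene Hspb1 (351 against 8.96 CPM), the imprinted RNA H19 (206 against 5.86 CPM), the calcium-binding S100a6 (192 against 9.57 CPM) and S100a11 (122 against 11.1 CPM), the protease-activated receptor F2rl1 (60.7 against 3.75 CPM), the carbonic anhydrase Car2 (164 against 16.6 CPM) and the imprinted Peg10 (194 against 24.5 CPM).

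Genes of mesoderm and of contractile cells were also among the leading genes at day 6, but few cells carried them. Tagln, an actin-binding protein of smooth muscle, measured 112 CPM against 0.727 CPM in the other cells, the highest ratio among genes with at least 50 CPM in the class, yet only 11 of 52 cells had a UMI and 1 cell held at least 50% of them. Tcf15, a factor of paraxial mesoderm, measured 79.4 against 5.32 CPM, in 12 cells, of which 2 held at least 50% of its UMIs. Meox1, a somite factor, measured 44.5 against 1.67 CPM, in 15 cells. Of the mesenchyme list of 11 measured genes, Tagln, Myl9, Cnn1 and Tpm1 were at least 2-fold higher, and Col3a1, Postn and Actg2 were at 0. Tpm1, a tropomyosin, was different in that every class cell had a UMI of it (632 against 80.4 CPM, with a median of 229 CPM over cells). Of the early mesoderm list, Mixl1 and Hand1 were at 0. Among 13 caudal genes, Hoxb9 (56.5 against 18.6 CPM), Hoxb8, Cdx1 and Cdx2 were at least 2-fold higher, with 91.9% of the Hoxb9 UMIs in 6 cells. These 4, Tcf15, Meox1 and 3 of the 5 mesenchyme genes over the minimum passed it through the class alone. They thus stood higher by that choice. Over all genes 3.65% were 2-fold higher. The caudal list came to 192 CPM in the class, 55.9 CPM in the other cells and 454 CPM in the vagal/trunk class. Pax2, a factor of the midbrain and isthmus, measured 34.6 against 7.02 CPM, with 93.9% of its UMIs in 6 cells.

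The keratin level at day 6 was itself uneven between cells. The median class cell had 113 CPM of Krt8, with quartiles of 37.2 and 495 CPM and a maximum of 13380.6 CPM, and 3 cells held at least 50% of all Krt8 UMIs of the class. Epcam was spread more evenly, with a median of 166 CPM (quartiles 35.6 and 359), and 11 cells held at least 50% of its UMIs. Krt8 was found in 44 of the 52 cells and Epcam in 42.

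Roof plate genes were low at day 6. Of 16 listed, 12 were under the minimum on both sides. The 4 others passed it through the class alone, so they stood higher by that choice, and each was at least 2-fold higher (3.65% of all genes were), among them Rspo3 (20.8 against 1.65 CPM), Wnt4 and Msx1 (22.6 CPM in the class). Their median log2 ratio was 1.83, and it was 1.11 over the members that pass the minimum with TMM scaling. Rspo1 (4.94 against 4.18 CPM) and Wnt1 (2.12 against 2.01 CPM) were level. Lmx1a, Gdf7 and Rspo2 were at 0. Of 13 neural plate border genes 7 were over the minimum, and Msx1 and Tfap2c were 2-fold higher. Of 10 midbrain and isthmus genes Pax2 and Fgf8 were the 2 over it, and both were 2-fold higher. Of the border genes 2, and both midbrain genes, passed the minimum through the class alone.

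Below the other cells at day 6 stood genes of neural progenitors. Of 10 progenitor genes, 6 were at least 2-fold lower and none higher, where 0.953% of all genes were 2-fold lower. Of the 10, 3 passed the minimum through the other cells alone, so they stood lower by that choice. Sox2, the factor that keeps neural progenitors, measured 73.8 CPM against 202 CPM. Fabp7, a lipid-binding protein of radial glia, measured 20.1 against 124 CPM, and Sox21 21.5 against 112 CPM. The retinoid-binding protein Crabp1 measured 1162.4 against 3225.5 CPM, the Wnt antagonists Sfrp1 and Sfrp2 64.3 and 21.2 against 211 and 64.9 CPM, the growth factor Ptn 415 against 1083.8 CPM and Hes3 33.9 against 108 CPM. A further measure of scale bears on these counts. With TMM scaling, which moved the median of all genes at day 6 from 0.03 to -0.11 on the log2 scale, 65.9% of the genes 2-fold apart were higher in the class, against 79.3% with scaling by totals.

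At day 7 the class was led by a mixture of roof plate and epithelial genes. Over all genes 2.25% were 2-fold apart (133 of 5912). Of 16 roof plate genes, 5 were at least 2-fold higher (among them Rspo1, Rspo3, Wnt1 and Msx2) and none lower, with 1.56% of all genes higher. Of the 7 over the minimum, 3 passed it through the class alone. The list came to 961 CPM in the class, 321 CPM in the other cells and 1285.0 CPM in the vagal/trunk class, which held 238 CPM of Rspo3. Rspo3 measured 91.4 against 8.84 CPM, Wnt1, the dorsal midline Wnt, 156 against 58.4 CPM, and the homeobox gene Msx2 79.5 against 34.9 CPM. Lmx1a, the factor that specifies the roof plate, was under the minimum at 19.6 against 1.59 CPM, and Gdf7, its best known BMP ligand, measured 2.60 against 0.214 CPM. Beside them led the endocytic adaptor Dab2 (68.4 against 10.1 CPM), the mesenchymal cadherin Cdh11 (97.3 against 15.3 CPM), Fam181b (85.4 against 15.2 CPM), Arhgap29 (52.2 against 10.3 CPM), the semaphorin receptor Nrp2 (53.5 against 10.7 CPM), Car2 (51.7 against 8.04 CPM), Ifitm1 (80.8 against 16.9 CPM), Kctd12 (84.0 against 23.2 CPM), the growth cone protein Gap43 (93.7 against 26.6 CPM) and Twist1, an EMT factor (60.3 against 14.6 CPM). Of the epithelial list Krt8, Krt18 and Epcam were 2-fold higher, out of 4 over the minimum that all passed it through the class alone.

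The epithelial part of day 7 lay in few cells and the roof plate part in most. Of all Krt8 UMIs of the class, 84.9% lay in 14 of the 133 cells and 2 cells held at least 50%, and the median cell had 21.6 CPM. Epcam was found in 30 cells, with a median of 0. Rspo1 was found in 109 cells, with a median of 108 CPM (quartiles 22.1 and 241), and Wnt1 in 104 cells, with a median of 109 CPM. Day 7 thus had most of the Krt8 and Epcam UMIs in few cells and Rspo1 and Wnt1 UMIs in most.

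Day 7 genes below the other cells were again progenitor genes, with 5 of 10 at least 2-fold lower, where 0.694% of all genes were 2-fold lower. Of the 10, 2 passed the minimum through the other cells alone. Sox21 measured 4.51 against 54.2 CPM, and the dorsoventral patterning gene Pax6 6.84 against 57.7 CPM. The Notch target Hes5 measured 39.8 against 148 CPM, Irx3 18.6 against 74.2 CPM and Irx5 26.9 against 79.1 CPM. Itgb8 (9.99 against 50.6 CPM), Nsg2 (29.1 against 83.9 CPM) and Tox3 (29.7 against 82.1 CPM) made up the rest of the 8 lowest. Sox1 stood at 24.6 against 61.3 CPM, and Nes, an intermediate filament of progenitors, at 157 against 152 CPM.

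At day 8 the class was led by roof plate and BMP response genes. Krt8 no longer stood out from all other cells together, although its partner Krt18 did (25.9 against 5.47 CPM). Against mid/hindbrain alone Krt8 was still higher, at 7.22 CPM (4.53 to 10.9) in the class and 2.20 CPM (1.86 to 2.59) there. Over all genes 3.61% were 2-fold apart (218 of 6047, as many higher as lower), and 67.3% of the genes 2-fold apart from mid/hindbrain alone were higher. Of 16 roof plate genes 7 were at least 2-fold higher and none lower, with 1.80% of all genes higher; 5 of the 7 passed the minimum through the class alone. The list came to 1317.7 CPM in the class, 206 CPM in the other cells and 958 CPM in the vagal/trunk class, which held 90.8 CPM of Rspo3 and 92.0 CPM of Wnt1. Rspo3 measured 190 against 5.83 CPM and Wnt1 244 against 26.4 CPM. Rspo1 was found in 74 of 76 cells, with a median of 362 CPM and quartiles of 236 and 530 CPM. Bmp6, a BMP ligand, measured 23.6 against 2.80 CPM, while Lmx1a and Gdf7 stayed low at 7.88 and 4.60 CPM. The highest ratio belonged to Gm48898, a gene model with no assigned role, at 52.2 against 0.417 CPM. The class held 77.2% of the library's UMIs of Gm48898. Adcyap1r1, the receptor for the peptide PACAP, measured 122 against 9.99 CPM. The lipase Pla2g7 (61.1 against 9.42 CPM), Cntnap2 (58.8 against 14.0 CPM), the membrane linker Ezr (196 against 51.3 CPM), Fam181b (140.2 against 23.6 CPM) and Gm26917 (231 against 55.8 CPM, with 88.2% of its UMIs in 8 cells) were further leading genes, as were several of the next paragraph.

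Most BMP response genes over the minimum stood above the other cells at day 8. Of 11 listed, 1 of the 4 over the minimum was at least 2-fold higher than in the other cells at day 6, 2 of 8 at day 7 and 6 of 8 at day 8, with none lower on any day. The shares of all genes higher were 3.65%, 1.56% and 1.80%. Through the class alone 1, 1 and 2 of those over the minimum passed it. Id1, a direct BMP target, measured 414, 988 and 958 CPM in the class and 327, 666 and 332 CPM in the other cells, so the class kept its day 7 level where the others were lower at day 8. Id3 measured 518, 1071.2 and 1312.8 CPM against 437, 901 and 642 CPM. Bambi, a decoy receptor that BMP induces, measured 9.53, 52.7 and 51.5 CPM against 9.43, 16.7 and 5.87 CPM, and Smad7, an inhibitory Smad, 13.1, 55.0 and 95.2 CPM against 4.87, 38.2 and 30.9 CPM. Nog, a BMP antagonist, measured 53.2 against 6.89 CPM at day 8, and Msx2 82.4 against 15.3 CPM. The vagal/trunk class held 825 CPM of Id1 and 57.9 CPM of Nog at day 8. Its BMP response list summed to 1117.1, 4977.9 and 3995.2 CPM at days 6, 7 and 8. In the class the sums were 1215.4, 3315.4 and 3446.5 CPM, so the vagal/trunk class held more at days 7 and 8. Msx1 and Msx2 are in both this list and the roof plate list. Among 10 Wnt response genes, Axin2, a feedback target, measured 36.4, 86.5 and 107 CPM against 42.2, 57.2 and 49.7 CPM and was the only one 2-fold higher at day 8, as Sp5 was at day 7.

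The lowest genes at day 8 were those of neurons, which by then were in the library in number. All 6 neuron genes over the minimum were at least 2-fold lower, where 1.80% of all genes were 2-fold lower, but 4 of the 6 passed the minimum through the other cells alone. Stmn2, a microtubule regulator, measured 12.5 CPM in the class, 12.5 CPM in mid/hindbrain and 201 CPM in all other cells together, so the class was level with mid/hindbrain. All other cells were also far above both for Elavl4 (7.88, 17.1 and 59.5 CPM), Elavl3 (14.1, 31.9 and 93.1 CPM), Dcx (2.63, 1.69 and 50.8 CPM), Onecut2 (15.1, 8.78 and 105 CPM) and the peptide gene Sst (0.985, 1.14 and 51.9 CPM), although Elavl3 and Elavl4 were below mid/hindbrain as well. Hoxb9 was at 3.28 CPM in the class, 2.58 CPM in mid/hindbrain and 54.4 CPM in all other cells. Sox21 (16.1 against 136 CPM) and Pax6 (31.5 against 119 CPM) remained below mid/hindbrain too, which held 152 CPM of Sox21.

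**Figure D2:**
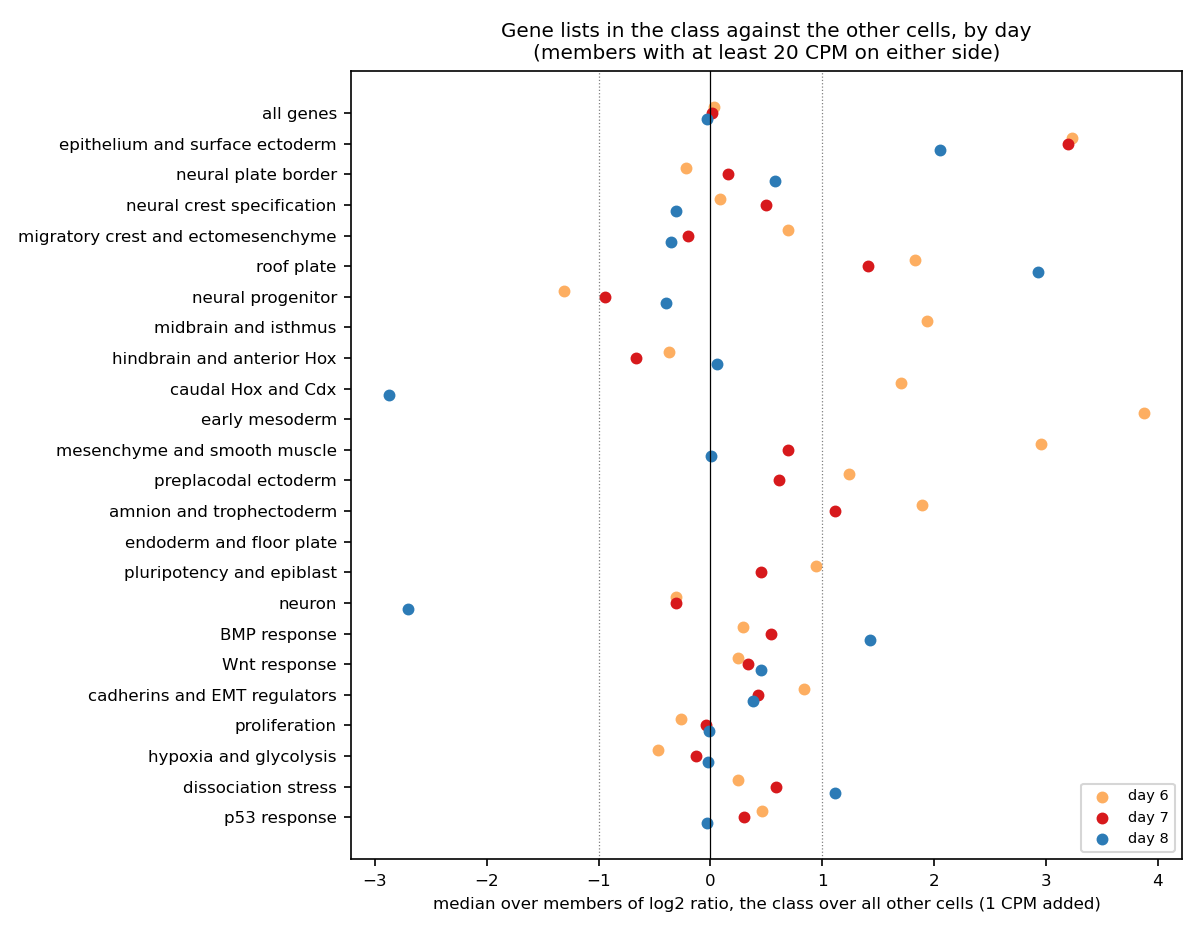
Median log2 ratio of the class over all other cells of the library for 23 gene lists and for all genes, at days 6, 7 and 8, over members with at least 20 CPM on either side (dotted lines at 2-fold). Epithelial genes lay at 3.23, 3.20 and 2.06 with 12, 4 and 1 members over the minimum, roof plate genes at 1.83, 1.41 and 2.93, progenitor genes at -1.31, -0.94 and -0.40, and all genes at 0.03, 0.02 and -0.03.

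Crest and EMT genes beyond the specifiers gave a mixed picture. Twist1 was at least 2-fold higher than in the other cells on each day (52.96, 60.3 and 21.7 CPM against 16.1, 14.6 and 7.26 CPM). Cdh11 was 2-fold higher at days 7 and 8 (9.18, 97.3 and 102 CPM against 3.01, 15.3 and 28.6 CPM). Snai2, the EMT repressor, measured 3.18, 7.39 and 2.30 CPM and Snai1 15.5, 8.34 and 0.328 CPM. Zeb2 stood below the other cells (71.0, 105 and 114 CPM against 135, 163 and 188 CPM). Cdh6, a cadherin of emigrating crest, measured 11.0, 35.0 and 11.2 CPM in the class and 168 and 291 CPM in the migratory class at days 7 and 8. Sox9 did not stand above the other cells on any day (36.7, 43.2 and 81.7 CPM against 45.4, 47.5 and 105 CPM). Tfap2a measured 4.59, 19.8 and 5.91 CPM, and Pax3, a border and dorsal tube factor, 34.6, 68.4 and 81.4 CPM against 28.8, 123 and 182 CPM. The crest specification list of 14 genes had a median log2 ratio of 0.09, 0.49 and -0.31, and 1, 2 and 2 members 2-fold higher with 0, 0 and 1 lower. Only 4, 6 and 6 of its members were over the minimum. Of these 1, 3 and 1 passed it through the class alone, and 1 at day 8 through the other cells alone. The shares of all genes higher on the 3 days were 3.65%, 1.56% and 1.80%, and those lower 0.953%, 0.694% and 1.80%. Of 16 genes of migratory crest and its mesenchyme 1 was 2-fold higher on each day (Foxc1, then Prrx2 at days 7 and 8), with Fabp7 lower at day 6 and Ednrb at day 8. Of 17 cadherins and EMT regulators 3, 2 and 2 were higher, Cdh1, Twist1 and Vim at day 6 and Cdh11 and Twist1 after it, with none lower. Over the minimum were 3, 4 and 3 of the 16 migratory genes, with 1, 0 and 1 through the class alone. The same counts for the 17 were 8, 10 and 10, with 2, 3 and 2.

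Marker UMIs per cell gave the same order after every cell was thinned to 10000 UMIs, a depth that all 261 class cells reached. UMIs of both Krt8 and Epcam were found in 30 of 52 cells at day 6 (57.7%, 43.2 to 71.3%), in 8 of 133 at day 7 (6.02%, 2.63 to 11.5%) and in 0 of 76 at day 8, which at this depth allows a share of up to 3.95% (3 cells of 76). In mid/hindbrain, taken as the background, they were found in 6.78%, 0.285% and 0.0573% of cells. Before thinning the class shares were 76.9%, 18.0% and 6.58%, and those of mid/hindbrain 45.4%, 2.51% and 0.630%. UMIs of both Rspo1 and Wnt1 were found in 0 of 52 cells at day 6 (allowing up to 5.77%), 56 of 133 at day 7 (42.1%, 33.6 to 51.0%) and 59 of 76 at day 8 (77.6%, 66.6 to 86.4%), against 0.0923%, 5.47% and 3.84% in mid/hindbrain, and before thinning in 0%, 72.2% and 97.4% of class cells and 1.89%, 23.8% and 13.3% of mid/hindbrain cells. A UMI of Foxd3, Sox10, Snai2 or Ets1 was found in 3.85% (0.469 to 13.2%), 12.8% (7.63 to 19.7%) and 3.95% (0.822 to 11.1%) of class cells, against 1.66%, 5.99% and 2.64% in mid/hindbrain, and before thinning in 28.8%, 36.8% and 7.89% of class cells and 10.2%, 24.1% and 8.13% of mid/hindbrain cells. The thinned intervals at days 6 and 8 include the background. Before thinning the day 6 interval, 17.1 to 43.1%, lay above the 10.2% of mid/hindbrain. A UMI of Meox1, Tagln or Acta2 was found in 19.2% (9.63 to 32.5%), 6.77% and 1.32% of class cells, against 1.80%, 1.09% and 0.172%, and before thinning in 42.3%, 17.3% and 1.32%. In the vagal/trunk class the thinned Krt8 and Epcam share was 13.3%, 0% and 0%. Its Rspo1 and Wnt1 share was 0%, 27.6% (12.7 to 47.2%) and 17.4% (9.32 to 28.4%), and before thinning 4.44%, 73.3% and 55.1%. At day 7 its thinned interval thus overlapped that of the class. Its crest gene share was 4.44%, 13.8% and 4.35%, and its Meox1, Tagln or Acta2 share 11.1%, 3.45% and 0%.

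**Figure D3:**
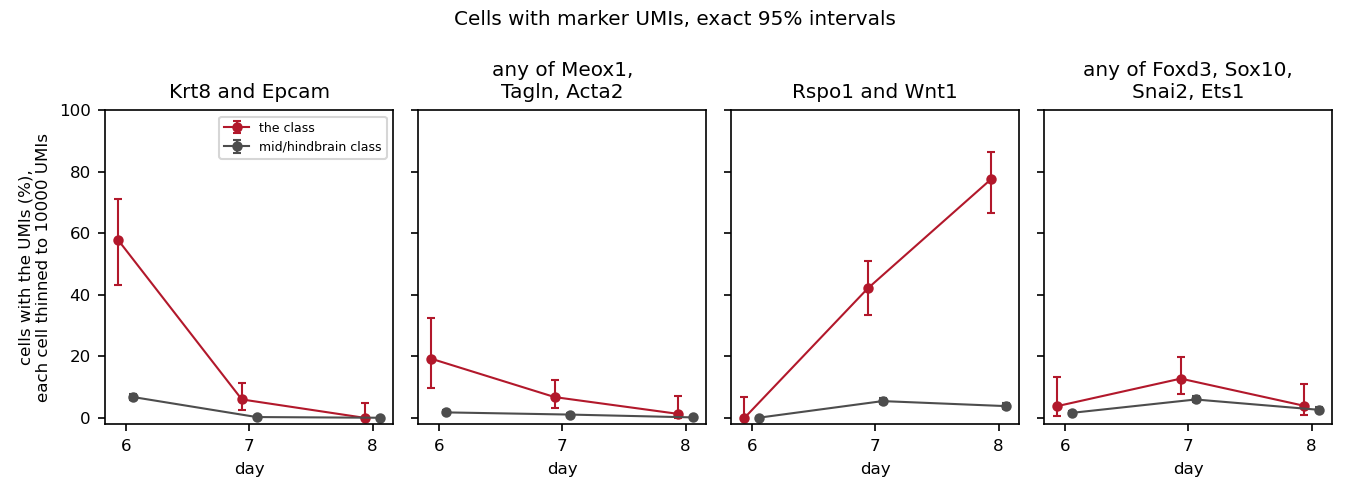
Share of cells with the named marker UMIs at days 6, 7 and 8, each cell thinned to 10000 UMIs, in the class (red) and in mid/hindbrain (grey), with exact 95% intervals. The share with Krt8 and Epcam was 57.7% at day 6 and 0% at day 8, and the share with Rspo1 and Wnt1 was 0% at day 6 and 77.6% at day 8.

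How far the marker sets met in 1 cell depended on depth. At 10000 UMIs no class cell at day 7 had both the Krt8 and Epcam pair (8 cells) and the Rspo1 and Wnt1 pair (56 cells). With so few cells of the first pair this cannot show that the pairs exclude each other. At day 6 no class cell had the second pair and at day 8 none had the first, so none could have both. Before thinning 12 of 133 cells at day 7 (9.02%) and 5 of 76 at day 8 (6.58%) had both. In mid/hindbrain 0.949% and 0.286% of cells did. At 10000 UMIs 2 of 52 cells at day 6 and 1 of 133 at day 7 had the epithelial pair with a mesodermal gene, and 6 cells at day 7 and 2 at day 8 had the roof plate pair with a crest gene. None of the 4 sets was found in 14 cells at day 6, 54 at day 7 and 15 at day 8. Whole-list sums per cell were also compared, with limits of 10 UMIs of the epithelial list and 3 of the roof plate list per 10000 UMIs, chosen after the values were seen. At day 6, 16 cells were at or over the epithelial limit alone, 5 at or over the roof plate limit alone, 6 reached both and 25 neither. At day 7, 118 of 133 cells reached the roof plate limit alone, 1 the epithelial limit alone, 4 both and 10 neither. At day 8, 74 of 76 reached the roof plate limit alone and 2 neither. In mid/hindbrain 1.66%, 0% and 0% of cells reached the epithelial limit and 3.69%, 49.0% and 25.3% the roof plate limit. The 25 day 6 cells that reached neither limit had 58302 median UMIs, and 10 of them had a UMI of a caudal Hox or Cdx gene. Such a UMI was also found in 5 of the 5 cells at the roof plate limit alone. It was in 3 of the 6 cells that reached both limits and 2 of the 16 at the epithelial limit alone.

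**Figure D4:**
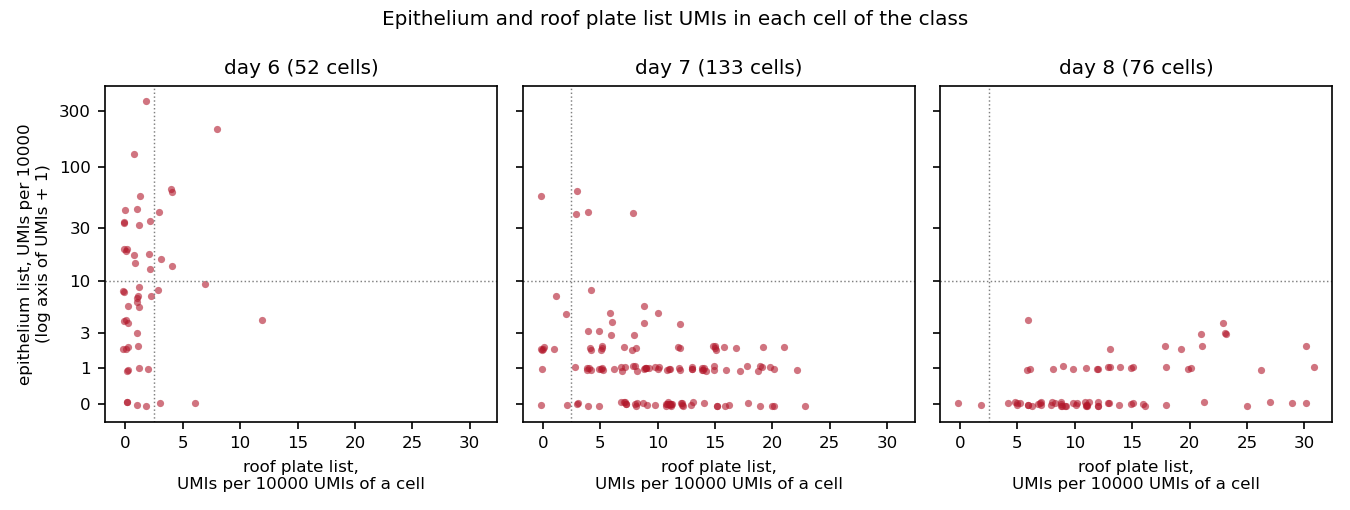
UMIs of the roof plate list (horizontal) and of the epithelial list (vertical, log axis of UMIs + 1) per 10000 UMIs in each cell of the class, by day, with dotted lines at the limits (10 UMIs across, and just left of 3 UMIs upright) and points slightly shifted at random to part them. Day 6 cells spread upward with few roof plate UMIs, with a highest epithelial sum of 374, and day 8 cells lie along the bottom with up to 31 roof plate UMIs.

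Within the class, day 7 and day 6 were further apart than the class was from mid/hindbrain on either day. By genes 2-fold apart, 558 of 6102 differed between days 6 and 7 (9.14%), against 384 of 5789 in the other cells (6.63%). Between days 7 and 8, 224 of 6129 differed (3.65%), against 219 of 5971 in the other cells (3.67%). The class and mid/hindbrain were 2-fold apart in 4.78% of genes at day 6, 2.30% at day 7 and 2.66% at day 8, and the class and the vagal/trunk class in 4.56%, 2.59% and 3.37%. The migratory class was 2-fold apart from the class in 6.92% of genes at day 7. Its 37 cells, like the 30 vagal/trunk cells of that day, give less exact levels.

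Genes higher in the class at day 7 than at day 6 were led by Wnt1, at 2.12 and 156 CPM. Next came Zic1, a border and dorsal tube factor (3.53 and 138 CPM), Ncald (2.12 and 79.1 CPM) and Rspo1. The nuclear receptor gene Nr2f1 measured 18.4 and 408 CPM, but the other cells also went from 23.2 to 435 CPM. The other cells also held more Zic1 at day 7 (9.55 and 127 CPM). Fam181b was different, at 3.53 and 85.4 CPM in the class and 10.2 and 15.2 CPM in the other cells. Msx3, Msx2, the factor Rfx4 (6.00 and 105 CPM), the ephrin receptor Epha7 (7.06 and 114 CPM), Ly6h (4.24 and 72.4 CPM) and the guidance cue Slit2 (6.71 and 84.0 CPM) made up the 12 highest. Of 16 roof plate genes 6 were 2-fold higher and none lower, and of 11 BMP response genes 7 were higher and none lower, with 5.01% of all genes higher. In the other cells, where 4.15% of genes were higher and 2.49% lower, 4 roof plate genes (Wnt1, Wnt4, Msx1 and Msx2) and 7 BMP response genes were higher too. Rspo1 was under the minimum there but also higher at day 7, with a log2 difference of 1.76 against 4.62 in the class.

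Genes lower at day 7 than at day 6 included 12 of 20 epithelial genes, with 4.13% of all genes lower. Sfn measured 86.9 and 1.78 CPM, Krt19 68.2 and 4.79 CPM, Cldn3 84.0 and 4.79 CPM, and Cdh1 86.9 and 7.25 CPM. The other cells, which held less of them, were lower at day 7 too: their log2 difference was -3.01 for Cdh1 (-3.41 in the class), -3.02 for Krt19 (-3.58), -1.45 for Cldn3 (-3.88), -1.01 for Sfn (-4.98) and -4.13 for Epcam (-2.63). Of the 4 epithelial genes over the minimum there, 2 were 2-fold lower, with 2.49% of all genes lower. Hspb1 went from 351 to 7.93 CPM, Tagln from 112 to 2.19 CPM and F2rl1 from 60.7 to 0.821 CPM. Hoxb9 went from 56.5 CPM to 0, at least 138-fold lower against a floor of 3 UMIs in the class. Several of the lowest were shared with the other cells, such as Wnt8a (55.1 and 0.137 CPM in the class, 64.1 and 0.357 CPM in the others), the pluripotency factor Pou5f1 (107 and 4.79 CPM, 47.5 and 1.75 CPM), Klf2 (53.7 and 3.69 CPM, 72.2 and 4.88 CPM), Pim2 (107 and 5.06 CPM, 64.0 and 3.70 CPM) and Upp1 (82.3 and 1.91 CPM, 69.6 and 4.32 CPM).

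From day 7 to day 8 the class held more of several neural genes, and so did the other cells. Pou3f3, a neural POU factor, measured 3.15 and 59.4 CPM in the class and 10.9 and 91.3 CPM in the other cells, creatine kinase Ckb 63.5 and 593 CPM, and the non-coding RNA Pantr1 12.9 and 127 CPM. Mir124-2hg, the host RNA of a neural microRNA (13.9 and 62.7 CPM), Mir100hg (14.5 and 63.0 CPM), Tox (11.6 and 50.6 CPM), Ly6h (72.4 and 264 CPM) and Tox3 (29.7 and 106 CPM) were of this kind. Adcyap1r1 stood apart, with a log2 difference of 2.94 in the class and 0.70 in the other cells. For Rnd2 (38.7 and 151 CPM in the class) these values were 1.94 and 0.63. For Hes5 these values were 1.84 and 0.08, and for Fabp7 2.00 and 1.48. Of 10 progenitor genes 5 were 2-fold higher at day 8 (Sox3, Pax6, Hes5, Fabp7 and Rfx4) and none lower, with 2.04% of all genes higher. In the other cells 4 were 2-fold higher (Sox3, Pax6, Fabp7 and Ncam1) and none lower, with 2.71% of all genes higher. The list's sum was 364, 883 and 2074.3 CPM in the class over the 3 days and 787, 1475.8 and 2588.0 CPM in the other cells.

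Genes lower at day 8 than at day 7 were led by Krt8, with log2 differences of -4.22 in the class and -1.03 in the other cells. Car2 (51.7 and 4.92 CPM), Ifitm1 (80.8 and 9.85 CPM) and Krt18 (130.1 and 25.9 CPM), all named above for day 6 or 7, were among the 12 lowest. So were S100a10 (69.6 and 5.91 CPM) and Tagln2 (66.2 and 13.5 CPM). The glucose transporter Slc2a3 (128 and 20.7 CPM), Lin28a (140.5 and 28.9 CPM), the metallothionein Mt1 (557 and 120.1 CPM), Nrp2 (53.5 and 11.5 CPM) and the imprinted Nnat (345 and 104 CPM) were too. The other cells were also more than 2-fold lower for several of these. Their log2 difference was -2.17 for Slc2a3 (-2.57 in the class), -1.53 for Lin28a (-2.24), -2.22 for Ifitm1 (-2.92) and -1.32 for Mt1 (-2.20), while that of Car2 was -0.45 (-3.15 in the class). Of 20 epithelial genes 3 were 2-fold lower and none higher, with 1.62% of all genes lower. In the other cells no epithelial gene was over the minimum on either day, and 0.955% of all genes were lower. Over both steps, 17.1% of genes were 2-fold apart between days 6 and 8 (1079 of 6322), against 14.1% in the other cells. In the class 10.3% were higher and 6.75% lower at day 8, and in the other cells 9.98% and 4.13%.

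Other fixed lists are given beside their levels in the other cells. Of 10 proliferation genes none was 2-fold apart from the other cells on any day, and the list's sum was 1277.1, 1684.2 and 2055.3 CPM in the class and 1612.4, 1702.4 and 2080.6 CPM in the others. Hypoxia and glycolysis genes summed to 2823.3, 1083.8 and 699 CPM in the class and 4066.5, 1123.9 and 677 CPM in the others. The dissociation stress list, which marks handling, summed to 1757.0, 493 and 508 CPM in the class and 1349.1, 383 and 278 CPM in the others. Junb, Atf3 and Hspb1 were 2-fold higher in the class at day 6, and Fos and Junb at day 7. At day 8 Fos (97.8 against 20.4 CPM), Junb (40.4 against 7.09 CPM) and Egr1 (20.4 against 6.03 CPM) were. None was 2-fold lower. Over the minimum were 9, 6 and 6 of its genes, with 2, 0 and 2 through the class alone. At day 8 these were Junb and Egr1, which stood higher by that choice. The shares of all genes higher were 3.65%, 1.56% and 1.80%. The part of this list in the results was not tested. The p53 response list summed to 954, 619 and 520 CPM against 612, 516 and 555 CPM, with Phlda3 at 190, 22.4 and 4.27 CPM in the class. Endoderm and floor plate genes had no member over the minimum on any day. The amnion and trophectoderm list summed to 134.5, 59.2 and 7.55 CPM against 27.0, 17.6 and 6.38 CPM. At day 6 its 3 genes over the minimum, Cdx2, Tfap2c and Wnt6, passed it through the class alone and were 2-fold higher. The same held at day 7 for Tfap2c, then the only gene of the list over it. The shares of all genes higher were 3.65% and 1.56%. Cdx2 measured 26.8 against 6.73 CPM at day 6, and 72.0 CPM in the vagal/trunk class. Wnt6 measured 34.6, 11.9 and 0.328 CPM in the class, with 85.7% of its day 6 UMIs in 6 cells, and Gata3 2.12, 2.60 and 0 CPM. Of the preplacodal list 1 gene, Six4, was over the minimum at day 6, through the class alone, so it stood higher by that choice. It was 2-fold higher (36.7 against 15.01 CPM), with 3.65% of all genes higher. The pluripotency list summed to 419, 56.4 and 24.6 CPM against 263, 37.4 and 19.4 CPM.

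The other elongated day 6 library (replicate 1, labelled batch 1) carries different class names, none of them this one, and comes in a table with other genes and cell filters. There 293 of 2076 cells (14.1%, 12.6 to 15.7%) had UMIs of both Krt8 and Epcam at 10000 UMIs, against 185 of 2396 in replicate 2 (7.72%, 6.68 to 8.86%). In replicate 1, 20.5% of these cells were in the class named surface ectoderm, which held 520.0 CPM of Krt8, 127 CPM of Epcam and 63.9 CPM of Sfn, and 0.388 CPM of Meox1. More of them were in caudal epiblast (28.7%) and hindbrain (28.3%), and 18.8% in anterior epiblast. As a share of each class's own cells, surface ectoderm was highest at 40%. Anterior epiblast had 27.8%, caudal epiblast 22.2% and hindbrain 11.2%. A mesenchyme class of 17 cells held as much Krt8 (525 CPM), 283 CPM of Tagln, 160 CPM of H19 and 67.8 CPM of Meox1, where surface ectoderm held 78.1 CPM of Tagln and 10.1 CPM of H19. In replicate 2, 16.2% of them were in the class described here and 79.5% in mid/hindbrain. Batch, table and class naming cannot be told apart, and this comparison was chosen after the data were seen.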

How the data were processed

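Single-cell RNA was measured with 10x Genomics libraries. Per the submitters' processing notes, reads were processed with Cell Ranger 3.1 on mm10. The authors deposited raw UMI counts per gene and cell, and their metadata give the mitochondrial share of a cell's UMIs in percent. The authors' filters, clustering and doublet treatment are not given in the sources used here, and no doublet caller was run. Column sums were checked against the deposited UMI counts per cell and matched in all cells of the libraries used. The 4 libraries of this table held 2402, 2565, 3337 and 3677 cells with 152742819, 133408217, 115735293 and 89832377 UMIs in the order of days 6, 7, 8 and 10.

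UMIs were summed over the cells of a class and library and scaled to CPM by the total of those cells, with exact Poisson 95% intervals. Shares of cells have exact Clopper-Pearson 95% intervals. Both cover counting error only. Log2 ratios have 1 CPM added to each side, for genes with at least 20 CPM on either side. The class comes from a clustering of these same genes and has 1 library a day, so no difference was tested and no adjusted p-value exists. Comparisons are counts past 2-fold beside the share of all genes past it. For marker shares, each cell was thinned to 10000 UMIs, which left out 6, 6 and 2 mid/hindbrain cells at days 6, 7 and 8, 1 vagal/trunk cell at day 7 and none of the class. Where no cell was found, the limit given is 3 cells of the total. The calculation of the ratios was checked on simulated counts. Whether the counting used strand is not given in the sources used here, and exons of Krt8, Tagln, H19, Rspo3, Dab2, Hes5, Irx3, Zic1, Nr2f1 and some others named overlap genes of the opposite strand in GENCODE vM21.

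The genes named are, for each day, the 15 highest ratios of the class over the other cells with at least 50 CPM in the class and the 8 lowest with at least 50 CPM in the others. Between consecutive days they are the 12 highest and 12 lowest with at least 50 CPM on the higher day. Members of 23 gene lists and the class markers Krt8, Epcam and Rspo1 may also be named. Some genes that meet this rule are not reported here. The class, the lists and the rule were chosen with earlier results of these data known, and the per-cell limits, the motifs and the comparison with replicate 1 after the values were seen. Alternatives were TMM scaling (edgeR 4.0.16), no minimum or 100 CPM, 5 CPM added, the mean of each cell's CPM, mid/hindbrain as comparator, other thinning depths, and leaving out cells over 2 times their library's median UMIs. Work was done in Python 3.11.15 with numpy 2.4.6, pandas 2.3.3 and scipy 1.17.1.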

Additional observations from a re-analysis of the deposited data

How the results depend on the processing

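No paired analysis was possible because the class is in 1 library of each day, and for the same reason no replicate could be left out. Of 96 alternative values, 71 stayed within their limits, 25 moved and 0 reversed direction. Without a minimum level, 1261, 566 and 883 genes were 2-fold apart from the other cells at days 6, 7 and 8, and with a minimum of 100 CPM 41, 20 and 39. Likewise 2158 genes were 2-fold apart without a minimum between days 6 and 7, 1102 between days 7 and 8 and 3456 between days 6 and 8, and with a minimum of 100 CPM these were 116, 36 and 230. The day 6 epithelial list median was 2.54 with 5 CPM added, the day 8 one 1.46 as a mean over cells, and the day 6 roof plate median 1.11 with TMM scaling, over the members that then pass the minimum. At 5000 UMIs a cell the epithelial pair was found in 40.4% of cells at day 6, and the roof plate pair in 20.3% at day 7 and 50% at day 8. Without thinning the epithelial pair was found in 76.9%, 18.0% and 6.58% of cells, the crest genes in 28.8% and 36.8% at days 6 and 7, and the roof plate pair in 72.2% and 97.4% at days 7 and 8. Depth limits genes near 1 CPM, since 3 UMIs in the class come to about that level or less.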
